A study of Mus musculus with 20 samples.

Results

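The 10 genes described here are Cps1, Otc, Ass1, Asl and Arg1, which encode the urea cycle enzymes, and Gls2, Hal, Sds, Sdsl and Aldh1b1, further enzymes of nitrogen and aldehyde metabolism counted among the genes of the periportal liver. They were taken by symbol from the 55642 genes in the files, of which 30897 had a read in any library, and each symbol matched a single gene identifier. The Ensembl identifiers were ENSMUSG00000025991 for Cps1, ENSMUSG00000031173 for Otc, ENSMUSG00000076441 for Ass1, ENSMUSG00000025533 for Asl, ENSMUSG00000019987 for Arg1, ENSMUSG00000044005 for Gls2, ENSMUSG00000020017 for Hal, ENSMUSG00000029597 for Sds, ENSMUSG00000029596 for Sdsl and ENSMUSG00000035561 for Aldh1b1. RNA-seq was done on kidney and liver of male DBA/2J mice, an inbred strain, that had received vehicle (DMSO in cyclodextrin) or JQ1, a small molecule that displaces BET proteins from acetylated histones. The study asked whether a drug given for its effect on the testis changed other organs and whether such changes persisted.

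JQ1 was injected intraperitoneally at 50 mg/kg daily for 3 weeks, and vehicle mice followed the same schedule. The treatment groups were taken at 10 weeks of age and the recovery groups at 16 weeks, 6 weeks after dosing ended by these ages. A description of this cohort in the study's supplement gives a recovery of 3 weeks instead. The sample titles open with 3-week in all groups, also in those taken at the end of dosing. Descriptions of this cohort also differ in how many vehicle mice belonged to each time, and the labels were followed, so the length of the recovery and the age match of the controls are uncertain. Each organ had 3 JQ1 treatment, 3 JQ1 recovery, 3 vehicle treatment libraries and 1 vehicle recovery library, and the 4 vehicle libraries of an organ formed its control group. Control and recovery therefore differed in age for 3 of the 4 control libraries. JQ1 treatment and JQ1 recovery differed in age in all libraries, so age and time since dosing cannot be told apart between them. The titles give kidneys and livers the same replicate numbers but do not say whether a kidney and a liver of 1 number came from 1 mouse. Each library was counted as 1 animal, also where the organs were compared.

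Urea is made mainly in hepatocytes around the portal vein, where the mitochondrial enzymes Cps1 and Otc turn ammonium and ornithine into citrulline. The cytosolic enzymes Ass1, Asl and Arg1 then give argininosuccinate, arginine and finally urea and ornithine. The kidney lacks a full cycle, but its proximal tubule uses Ass1 and Asl to make arginine from circulating citrulline.

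The promoters of 4 of the 10 genes were in the RefSeq table used here (build GRCm38.p6), each running from 250 bases before to 50 bases after the start of the gene. No other promoter of the 10 genes was found there. They set Otc and Hal, which were read almost only in liver, beside Ass1 and Aldh1b1, which were read in both organs. Aldh1b1 differed from control in treated kidney. Ass1 passed only between the JQ1 groups in liver, and that result was lost in several other fits given below. The Otc promoter lies at chrX:10252055-10252354, that of Hal at chr10:93488518-93488817, that of Ass1 at chr2:31470020-31470319 and that of Aldh1b1 at chr4:45798772-45799071, all on the plus strand. Capitals mark matches, on either strand, to the strings TATAA (as in a TATA box), CCAAT (as in a CCAAT box), GGGCGG (a GC box) and TGACGTCA (a cAMP response element).
Otc: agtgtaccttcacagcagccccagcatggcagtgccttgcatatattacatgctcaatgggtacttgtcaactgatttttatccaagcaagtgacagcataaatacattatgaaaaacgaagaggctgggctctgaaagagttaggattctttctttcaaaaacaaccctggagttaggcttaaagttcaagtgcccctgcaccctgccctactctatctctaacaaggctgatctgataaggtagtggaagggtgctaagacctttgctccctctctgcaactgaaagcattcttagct
Hal: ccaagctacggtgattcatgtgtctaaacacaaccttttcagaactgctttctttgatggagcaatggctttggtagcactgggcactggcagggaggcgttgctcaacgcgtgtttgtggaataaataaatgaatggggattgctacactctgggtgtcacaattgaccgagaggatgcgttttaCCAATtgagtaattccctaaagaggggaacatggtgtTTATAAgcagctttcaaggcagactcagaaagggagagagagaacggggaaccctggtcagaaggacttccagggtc
Ass1: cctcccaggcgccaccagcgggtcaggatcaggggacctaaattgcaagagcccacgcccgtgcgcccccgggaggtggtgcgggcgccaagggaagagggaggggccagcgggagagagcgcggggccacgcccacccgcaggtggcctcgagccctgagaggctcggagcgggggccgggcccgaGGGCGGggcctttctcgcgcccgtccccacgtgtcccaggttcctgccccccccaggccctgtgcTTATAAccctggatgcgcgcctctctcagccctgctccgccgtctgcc
Aldh1b1: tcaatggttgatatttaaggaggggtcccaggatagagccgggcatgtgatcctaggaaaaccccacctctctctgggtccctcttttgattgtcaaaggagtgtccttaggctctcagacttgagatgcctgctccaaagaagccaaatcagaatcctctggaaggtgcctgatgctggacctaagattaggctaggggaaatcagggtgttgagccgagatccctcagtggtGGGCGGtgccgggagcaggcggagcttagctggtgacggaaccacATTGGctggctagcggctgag
Over the 32851 promoters of that length in the table, 24.9% held TATAA, while 37.4% held CCAAT, 35.7% had GGGCGG and 1.79% had TGACGTCA. None of these strings was found in the Otc window. The Hal window held CCAAT, starting at position -64 where the gene's first base is 0, and TATAA with its overlapping reverse complement close before the start. The longer TATAAA, held by 13.6% of promoters, matched in Hal alone of the 4 genes, on the reverse strand at position -28 and overlapping that pair. The Ass1 window held GGGCGG at position -63 and the same overlapping TATAA pair just after the start. The Aldh1b1 window held GGGCGG at position -16 and the reverse of CCAAT at position 29. The share of G and C was 44.3% for Otc, 47.7% for Hal, 54.7% for Aldh1b1 and 74.0% for Ass1, against a median of 52.7% over all promoters. Ass1 had 27 CpG dinucleotides, Hal and Aldh1b1 had 7 each and Otc had 1, against a median of 7.

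The libraries held 13952510 to 26895318 reads in kidney and 11968500 to 17529910 in liver. Values per library are CPM, a gene's reads as a share of the library's total, scaled by TMM factors within an organ unless said otherwise. The labelled organs were checked with 20 nephron and 12 hepatocyte markers, and the liver JQ1 recovery libraries stood apart. Against the mean of the kidney controls, and without TMM factors, the median nephron marker stood at 34.3% in liver JQ1 recovery library 2 and at 13.04% in library 3. It stood at 0.0818% in recovery library 1 and at no more than 0.0172% in the other 7 liver libraries. Kap, a transcript of the proximal tubule, read 3541 and 2138 CPM in recovery libraries 2 and 3, 20.4 CPM in library 1 and 0.146 to 3.02 CPM elsewhere in liver. Umod, of the thick ascending limb, had 1484 and 1209 reads in libraries 2 and 3 and at most 3 in any other liver library. The median hepatocyte marker stood at 53.4% of its control mean in recovery library 2, 82.2% in library 3 and 87.6% in library 1. Slc22a30 was the only nephron marker above its kidney level in liver, and was so in all 10 liver libraries. The 2 libraries labelled liver JQ1 recovery 2 and 3 thus carried many kidney transcripts, and the main liver results below are given with and without them.

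In vehicle mice the liver mean was above the kidney mean for 9 of the 10 transcripts on every scale used here. For Ass1 the direction of the means depended on the scale. Compared per length, in TPM, which corrects reads for transcript length (n = 4), Arg1 led in liver at 363 ± 38.7, followed by Ass1 at 143 ± 30.0 and Hal at 126 ± 14.8. Cps1 stood at 73.1 ± 17.0 TPM, Otc at 53.0 ± 3.94, Asl at 40.7 ± 6.18 and Gls2 at 35.9 ± 7.27. Sds stood at 30.4 ± 6.55 TPM, Aldh1b1 at 19.4 ± 3.12 and Sdsl at 3.68 ± 1.21. Among neighbours in this order, Ass1 and Hal, Asl and Gls2, and Gls2 and Sds overlapped between libraries, and the others did not. The Hal level rests on a short transcript, since Hal-204, annotated as a processed transcript of 851 bases, took a median of 85.4% of the gene's TPM but 41.0% of its reads. The single coding transcript of Hal stood at 17.9 TPM in liver control. The reads of Gls2 lay almost wholly on Gls2-211, a transcript annotated as subject to nonsense-mediated decay, so coding transcripts of Gls2 are listed at 0 in liver control. Cps1, Sds, Sdsl and Aldh1b1 were each read from a single coding transcript in both organs.

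The kidney order was different. Ass1, which joins citrulline to aspartate, led there at 170.0 ± 16.9 TPM, and Asl, which splits the product into arginine and fumarate, followed at 32.3 ± 2.91. Sdsl stood at 2.48 ± 0.522 TPM and Aldh1b1 at 0.976 ± 0.416. Hal, Arg1, Cps1, Otc and Gls2 all lay at 0.295 TPM or below, each overlapping the next, and Aldh1b1 overlapped Hal. Sds had no read in a kidney control. Ass1 thus had the higher mean in kidney by TPM, but its libraries overlapped, at 156 to 194 TPM in kidney and 108 to 180 in liver. The TPM ranges of Asl and Sdsl overlapped between the organs as well. In the fit across all 20 libraries, which scales the organs by TMM factors, all 10 genes were higher in liver control (edgeR's quasi-likelihood test with Benjamini-Hochberg adjustment), as were 29.6% of all genes tested. Log2 differences of liver over kidney were 1.22 ± 0.14 for Ass1 (adjusted p = 1.68e-07), 1.81 ± 0.11 for Asl (adjusted p = 9.16e-12), 2.03 ± 0.24 for Sdsl (adjusted p = 3.69e-07) and 5.79 ± 0.33 for Aldh1b1 (adjusted p = 2.44e-10). The other genes that had kidney reads differed by 10.71 for Hal to 13.42 for Arg1. On library totals without TMM factors, a choice made after seeing the data, all 10 genes were again higher in liver, where 12.1% of all genes were. The differences were then 0.37 ± 0.13 for Ass1 (adjusted p = 0.0148), 0.95 for Asl, 1.18 for Sdsl and 4.94 for Aldh1b1, and the median of all genes moved from -0.06 to -0.91. The size of these differences and, for the means of Ass1, their direction thus rest on how the organs are scaled. Sds, with 0 reads in 69801772 kidney control reads, was at least 1410-fold higher in liver by CPM, taking 3 counts over the group as its floor. This floor and the counting error of reads do not cover differences between animals.

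Few of the 10 genes could be followed in kidney. After the filter on low counts Ass1, Asl, Hal, Sdsl and Aldh1b1 were tested there, 5 of 10, and in liver 10 of 10. Cps1, Otc, Arg1, Gls2 and Sds fell below the filter in kidney. All adjusted p-values below are from edgeR's quasi-likelihood test with Benjamini-Hochberg adjustment over all genes tested in the organ. In these bulk samples fewer cells of a type and less RNA per cell cannot be told apart.

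**Figure D1:**
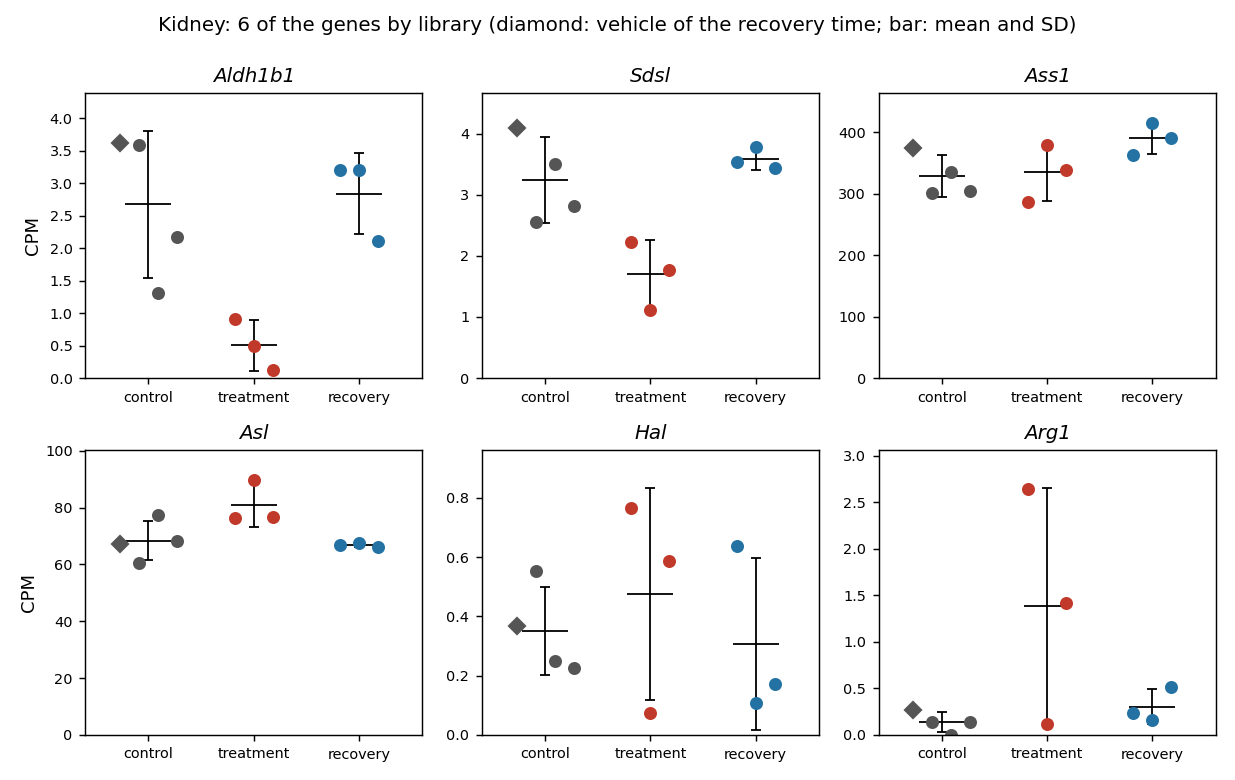
Kidney CPM of 6 of the genes by library (linear axes from 0), with the mean and SD of the 4 control, 3 treatment and 3 recovery libraries as bars. The 3 treated libraries lie below all controls for Aldh1b1 and Sdsl, while Arg1 is higher in treatment libraries 1 and 3 alone.

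Aldh1b1, a mitochondrial aldehyde dehydrogenase, fell in the kidneys of JQ1-treated mice at the end of dosing. Vehicle treatment libraries 1 to 3 read 3.59, 1.31 and 2.18 CPM and the vehicle recovery library 3.62. The treated libraries read 0.904, 0.486 and 0.118 CPM, and the recovery libraries 3.19, 3.20 and 2.12. All treated libraries lay below every control and every recovery library, and recovery lay within the control range. These levels rest on 13, 13 and 2 reads in the treated libraries, against 21 to 69 in the controls. The log2 change at treatment was -2.43 ± 0.49 (95% interval -3.47 to -1.40, adjusted p = 0.00767), and Aldh1b1 was the only one of the 5 tested genes that passed, where 4.13% of all kidney genes did, 1.4% higher and 2.73% lower. On library totals without TMM factors 0.583% of all genes were higher and 4.34% lower, and Aldh1b1 and Sdsl both passed. It passed under all 15 alternatives run, with log2 changes of -2.99 to -2.0. Against recovery the treated libraries were lower by -2.52 ± 0.51 (adjusted p = 0.00517). Recovery against control differed by 0.09 ± 0.40, with an interval of -0.76 to 0.94.

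The kidney reads of Aldh1b1 stood above the level of liver RNA in the control libraries. Aldh1b1 in the kidney controls was 1.57% to 4.43% of its liver level, whereas the median hepatocyte marker was at 0.0114% to 0.0808%. In the treated libraries Aldh1b1 was at 1.00%, 0.574% and 0.133% and the median marker at 0.0252%, 0.00956% and 0.0651%. The margin was narrowest in library 3, where Aldh1b1 had 2 reads, too few to set it apart from the level of liver RNA. Of the 11 proximal tubule markers 2 rose and 2 fell at treatment. Their summed level was 17175 to 18171 CPM in the treated libraries and 19041 to 28560 in the controls, without TMM factors, and 3 of 6 red cell markers rose. Whether these played a part in the fall of Aldh1b1 was not tested.

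Sdsl, a relative of serine dehydratase, read 2.55, 3.50 and 2.81 CPM in the vehicle treatment libraries of kidney and 4.10 in the vehicle recovery library. It read 2.23, 1.12 and 1.77 CPM after treatment and 3.54, 3.79 and 3.43 at recovery. The treated libraries were again below all others, by a narrow margin for library 1. The difference from control was -0.96 ± 0.27 (adjusted p = 0.0563) and did not pass, and that from recovery was -1.10 ± 0.29 (adjusted p = 0.0244) and passed. With Aldh1b1 and Sdsl, 2 of the 5 genes were lower at treatment than at recovery, where 7.31% of all genes passed and 4.91% were lower. The difference from control passed by DESeq2 (adjusted p = 0.0267), which called 6.07% of all genes, and that from recovery was lost without any 1 of 5 libraries, which gave adjusted p-values of 0.0576 to 0.0909. Non-overlapping libraries, as in Aldh1b1 and Sdsl at treatment against control, and lower at treatment, were found for 8.31% of all kidney genes.

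Ass1, the most abundant of the 10 transcripts in kidney, showed no difference from control that passed at treatment. Controls read 301, 335, 305 and 374 CPM, treated libraries 286, 379.6 and 338, and recovery libraries 363, 415 and 391. The groups overlapped throughout. Its log2 change was 0.03 ± 0.10 at treatment (interval -0.18 to 0.23, adjusted p = 0.929) and 0.25 ± 0.09 at recovery (adjusted p = 0.440).

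Asl read 60.7, 77.3, 68.4 and 67.2 CPM in the kidney controls, 76.4, 89.9 and 76.6 after treatment and 66.9, 67.4 and 66.2 at recovery. The treated libraries lay above all recovery libraries and overlapped the controls only through vehicle treatment library 2. Differences were 0.25 ± 0.09 from control (adjusted p = 0.125) and 0.28 ± 0.09 from recovery (adjusted p = 0.0736). Hal, which opens histidine breakdown, had 2 to 11 reads per kidney library, and its change of 0.37 had an interval of -1.24 to 1.98. At recovery none of the 5 tested genes passed against control, where 0.00583% of all genes did. Ass1 alone of the 5 had an unadjusted p below 0.05, as had 9.16% of all genes. DESeq2 called 0 of the 5 with 0.87% of all genes, but gave Hal, Sdsl and Aldh1b1 no adjusted p.

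Arg1, the arginase of the liver cycle and also a gene of some activated macrophages, was too low in kidney for the test. Its reads were 2, 0, 3 and 5 in the controls, 38, 3 and 24 in the treated libraries and 4, 3 and 9 at recovery. Treatment libraries 1 and 3 were thus above every other kidney library, and library 2 was not. Without the filter the change passed (log2 3.23 ± 0.71, adjusted p = 0.000421), where 3.77% of all genes did. The summed macrophage markers, without TMM factors, were at 428 CPM in treatment library 1 and at 54.3 and 96.1 CPM in libraries 2 and 3, against 62.9 to 85.8 CPM in the controls. Of 7 tested markers of that list 0 rose and 1 fell. In library 1 Arg1 stood at 0.268% of its liver level, beside 0.0158% for Cps1 and 0.0139% for Alb. In library 3 Arg1 stood at 0.147% beside 0.0411% for Cps1 and 0.0674% for Alb. The part of macrophages or of liver RNA in these reads was not tested further.

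Cps1 had 16 reads in the kidney vehicle recovery library and 0 to 8 in the other 9. That library also had the highest level of liver transcripts in kidney, with Alb at 0.0706% and Cps1 at 0.105% of the liver level. Otc had 5 reads there and 0 to 2 elsewhere. Sds, which breaks serine down to pyruvate, had 3 reads in kidney treatment library 3 and none in the others, which allows up to 3 reads in each of those.

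**Figure D2:**
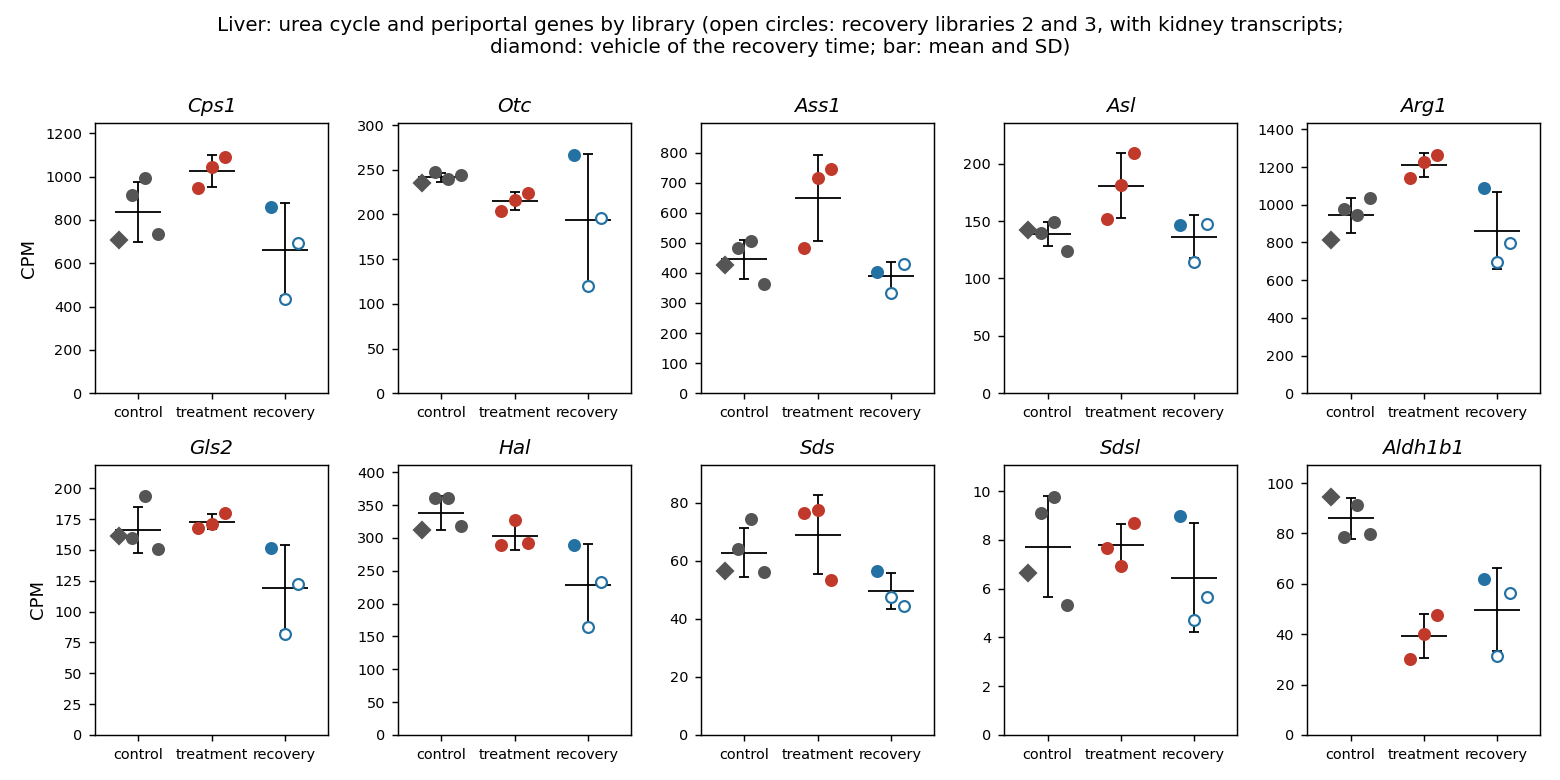
Liver CPM of the 10 genes by library (linear axes from 0), with group means and SD as bars, for 4 control, 3 treatment and 3 recovery libraries. Aldh1b1 is below all controls in each JQ1 library, and recovery library 2, an open circle, is the lowest recovery value of every gene but Sds.

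In liver Aldh1b1 was lower at the end of treatment, as in kidney. Vehicle treatment libraries 1 to 3 read 78.5, 91.4 and 79.8 CPM and the vehicle recovery library 94.3, against 30.2, 40.0 and 47.8 after JQ1. No treated library came near the control range. The log2 change was -1.13 ± 0.22 (interval -1.62 to -0.64), but its adjusted p was 0.0607, and 0 of the 10 genes passed, where 0.495% of all liver genes did. DESeq2 called Aldh1b1 alone of the 10 (adjusted p = 6.76e-05) with 1.95% of all genes, and 4 of the 10 genes had an unadjusted edgeR p below 0.05, as had 9.53% of all genes. On library totals without TMM factors Aldh1b1 passed (adjusted p = 0.00554), where 0.714% of all genes did. With treatment and control alone the change was -1.14 ± 0.13 (adjusted p = 0.000156), in a fit that called 2.66% of its genes. With recovery libraries 2 and 3 left out, a choice made after seeing the data, it was -1.14 ± 0.13 (adjusted p = 0.000151) and 2.3% of genes were called. Leaving out any 1 treatment or control library gave -1.29 to -0.97 and adjusted p-values of 0.131 to 0.339.

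The change of Aldh1b1 was not shown to differ between the organs. The difference of the log2 changes, liver less kidney, was 1.3 ± 0.60 (interval 0.02 to 2.58, adjusted p = 0.619). None of the 10 genes passed this test in edgeR, where 0.169% of all genes did and 4 of the 10 had an unadjusted p below 0.05, against 7.74% of all genes. With recovery libraries 2 and 3 left out the difference for Aldh1b1 was 1.28 (adjusted p = 0.435) and again 0 of the 10 passed in edgeR, where 0.609% of all genes did. DESeq2 also called 0 of the 10, with 0.667% of all genes. Sdsl, lower in the treated kidneys, read 9.11, 9.77, 5.34 and 6.66 CPM in the liver controls and 7.68, 6.94 and 8.70 after treatment. Its liver change was 0.01 ± 0.25 with all libraries and again 0.01 with recovery library 1 alone, and the organ difference of 0.97 ± 0.38 had an adjusted p of 0.516.

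Of the 5 urea cycle genes 4 had a higher mean after treatment in liver, and Otc a lower one, none of them past the threshold. Ass1 read 484, 506, 364 and 425 CPM in the controls and 483, 716 and 747 after treatment. Treatment library 1 fell among the controls and the other 2 lay above them. Its change was 0.55 ± 0.16 (interval 0.20 to 0.89, adjusted p = 0.201), and 0.53 (adjusted p = 0.182) with recovery libraries 2 and 3 left out.

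Asl read 140.0, 149, 124 and 142 CPM in the controls and 152, 181 and 209 after treatment, and its change was 0.38 ± 0.13 (adjusted p = 0.291), or 0.37 (adjusted p = 0.0596) with recovery libraries 2 and 3 left out. Its groups did not overlap with TMM factors, but on library totals treatment library 1, at 148 CPM, fell below the highest control at 151. Arg1, which releases urea, read 977, 948, 1035 and 814 CPM in the controls and 1142, 1225 and 1263 after treatment. Its treated libraries lay above all controls on both scales, and its change was 0.36 ± 0.15 (adjusted p = 0.459). With treatment and control alone it was 0.35 ± 0.09 (adjusted p = 0.0455), and with recovery libraries 2 and 3 left out it was 0.35 ± 0.09 (adjusted p = 0.0441). Both fits thus called Arg1 and Aldh1b1, 2 of the 10 genes.

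Cps1, the entry enzyme of the cycle, read 916, 992, 734 and 709 CPM in the controls and 945, 1046 and 1088 after treatment, and its change was 0.29 ± 0.20, or 0.28 with recovery libraries 2 and 3 left out. Otc, which makes citrulline, read 247, 239, 244 and 235 CPM in the controls and 204, 216 and 224 after treatment. The treated libraries were all below the controls, with a change of -0.17 ± 0.19 (adjusted p = 0.863), or -0.18 (adjusted p = 0.326) with those libraries left out. With TMM factors 2 of the 10 genes, Asl and Arg1, were thus higher and 2, Otc and Aldh1b1, lower without overlap, against 6.79% and 6.13% of all genes. On library totals Arg1 was higher and Otc, Hal and Aldh1b1 lower without overlap. The shares of all genes just given are for TMM-scaled values and are no background for that scale. The 5 urea cycle genes summed to 2606 ± 236 CPM in control (n = 4) and 3280 ± 315 after treatment (n = 3). The lowest treated sum, 2926 CPM, lay above the highest control sum, 2834, but without TMM factors the sums overlapped, at 2838 to 3263 CPM against 2307 to 2881. Hepatocyte markers summed to 98702 to 110562 CPM in treated libraries and 84715 to 90736 in controls, without TMM factors. Of these 12 markers 0 passed with all libraries, and 3 rose and 1 fell with recovery library 1 alone. Their part in the higher sum was not tested.

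Among the other periportal genes Hal read 359.9, 361, 318 and 312 CPM in the controls and 289, 327 and 292 after treatment, with a change of -0.16 ± 0.15. Gls2, the glutaminase of periportal hepatocytes, read 159.8, 194, 151 and 161 CPM in the controls and 168, 171 and 179.6 after treatment, within the control range. Sds read 64.3, 74.3, 56.3 and 56.4 CPM in the controls and 76.5, 77.4 and 53.3 after treatment, and its groups overlapped on both sides. Changes were 0.06 ± 0.16 for Gls2 and 0.14 ± 0.15 for Sds. With recovery libraries 2 and 3 left out they were -0.17 for Hal, 0.05 for Gls2 and 0.13 for Sds. The intervals of -0.30 to 0.41 and -0.17 to 0.45 leave room for changes of that size in either direction.

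**Figure D3:**
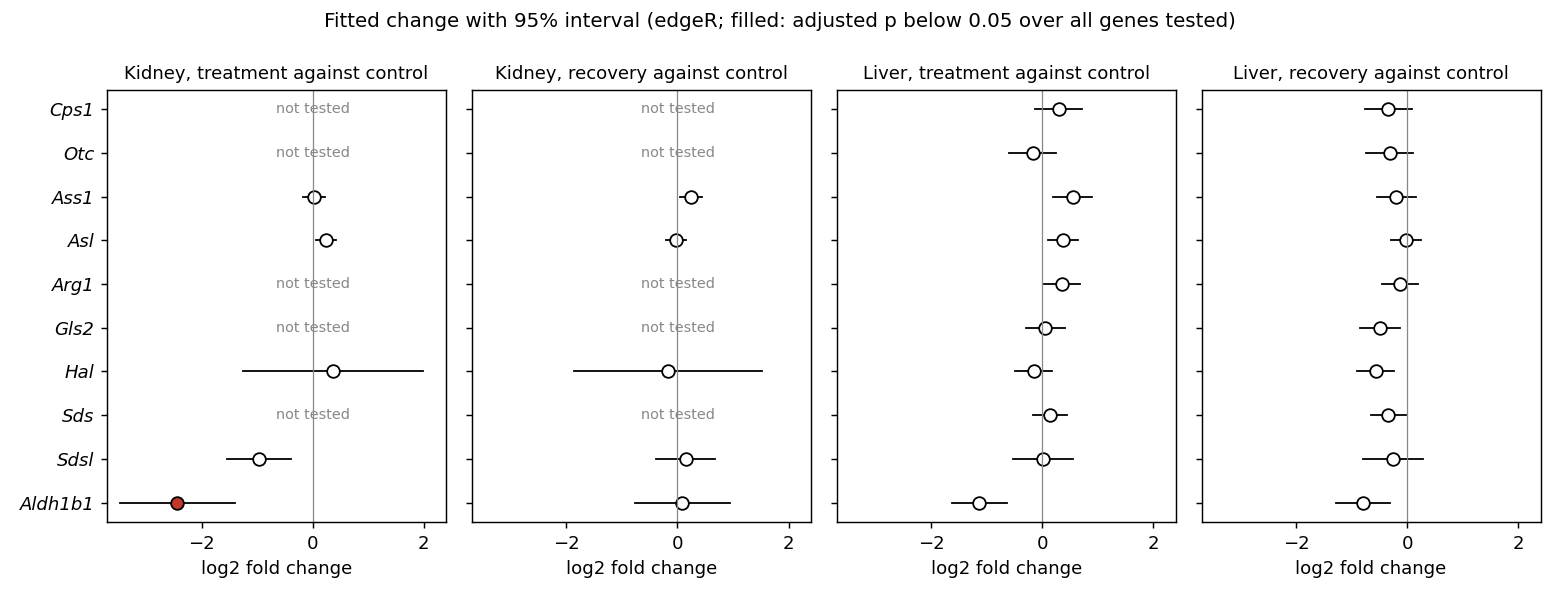
Fitted log2 fold change against control with its 95% interval for each gene tested in kidney and liver at treatment and recovery. Filled points have an adjusted p below 0.05, and only Aldh1b1 in treated kidney does.

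At recovery all 10 genes had a lower fitted level in liver than in control, but none passed the test, where 0.0343% of all genes did. The median log2 difference was -0.33, against 0.02 over all genes, and 4 of the 10 had an unadjusted p below 0.05, as had 16.7% of all genes. On library totals without TMM factors 8 of the 10 were lower and Asl and Arg1 higher, with none past the test and a median over all genes of 0.19. DESeq2 called 2 of the 10, Hal and Aldh1b1, with 4.73% of all genes. With recovery library 1 alone, 5 of the 10 were above control and 5 below, with a median of -0.05 against -0.02 over all genes, and again none passed in edgeR, where 0.00643% of all genes did and Aldh1b1 alone of the 10 had an unadjusted p below 0.05, against 5.19% of all genes. The lone library is assumed there to vary like the other groups. Without library 1, and so with both libraries that held kidney transcripts, 5 genes passed, Cps1, Otc, Gls2, Hal and Aldh1b1, in a fit that called 13.6% of all genes.

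**Figure D4:**
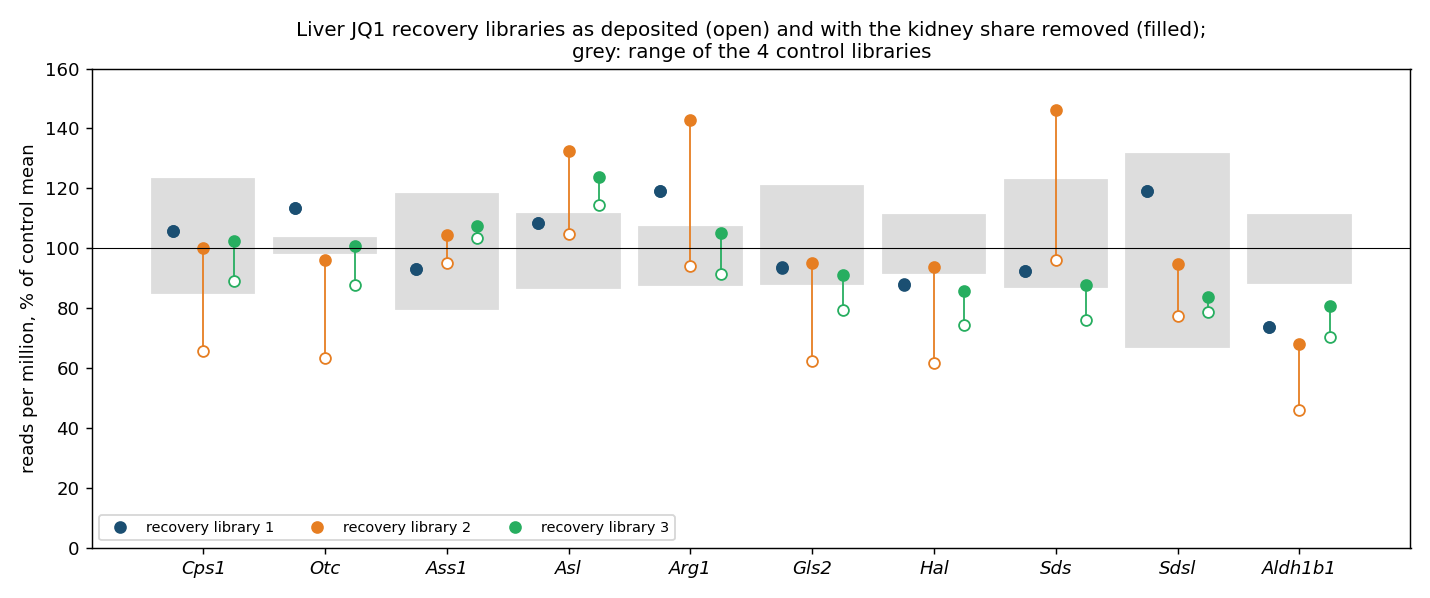
CPM of the 10 genes in the 3 liver JQ1 recovery libraries, without TMM factors, as a percentage of the control mean, as deposited (open) and after removal of the kidney share (filled), with the range of the 4 controls in grey. With the median marker share taken off, the median of the genes in library 2 moves from 71.5% to 98.1%, while Aldh1b1 stays below the control range in all 3 libraries.

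Otc, Cps1, Gls2, Hal, Sdsl and Aldh1b1 were lowest in recovery library 2, which had the largest kidney share. They were highest in library 1, which had the smallest. Otc, with next to no reads in kidney, read 266 CPM in recovery library 1, 120.3 in library 2 and 196 in library 3, against 235 to 247 in the controls. Cps1 read 860.3, 435 and 692 CPM in the same order, and Gls2 152, 82.1 and 123. For Otc, Cps1 and Gls2 library 1 lay within or above the control range.

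Asl, Ass1, Arg1 and Sds did not show that order on both scales. Asl read 146, 115 and 148 CPM in recovery libraries 1, 2 and 3, and Ass1 402, 334 and 428. On library totals Asl stood at 108%, 105% and 114% of its control mean, Ass1 at 93.0%, 95.1% and 103%, Arg1 at 119%, 93.9% and 91.4% and Sds at 92.3%, 96.1% and 76.1%. Each gene was then recomputed as CPM of liver RNA, by taking off the kidney share at the level of the kidney controls, a step chosen after seeing the data. The share taken off was the median marker. Single nephron markers ranged from 17.1% to 237% in library 2 and from 10.2% to 229% in library 3, with Slc22a30 the highest in both. A lower share would give lower values for genes with next to no kidney reads, so the recomputed levels depend on this choice. In library 2 the median of the 10 genes rose from 71.5% to 98.1% of the control mean and in library 3 from 83.4% to 96.0%, while in library 1 it was 99.6% on both scales. The number of genes below the control range went from 5 to 2 in library 2 and from 5 to 2 in library 3, and it was 2 in library 1.

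Aldh1b1 stayed low on this scale. It stood at 73.9%, 68.1% and 80.6% of its control mean in recovery libraries 1, 2 and 3 after removal of the kidney share, below a control range that starts at 88.3%. In CPM it read 61.8, 31.2 and 56.4 at recovery. The fitted difference from control was -0.79 ± 0.22 (adjusted p = 0.135) with all 3 libraries and -0.48 ± 0.19 (interval -0.89 to -0.08, adjusted p = 0.922) with library 1 alone. Hal stood at 87.9%, 93.8% and 85.6% on the same scale, where its controls begin at 91.6%, so it was below them in libraries 1 and 3. Its fitted difference was -0.56 ± 0.16 (adjusted p = 0.132) with all 3 and -0.23 with library 1 alone. Hal and Aldh1b1 were the 2 genes without overlap at recovery as deposited, where 6.13% of all genes were lower without overlap. The hepatocyte markers were not recomputed in this way. In library 1, with almost no kidney share, their median was 87.6% of control and single markers ranged from 67.2% to 110%. The values of Hal and Aldh1b1 in that library lay within this range. By fitted difference with library 1 alone, Cyp2c29 at -0.62 was the only marker below Aldh1b1 at -0.48. Hpx, at -0.42, was the next marker. Whether the low level was particular to Hal or Aldh1b1 was not tested.

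Asl, Arg1 and Sds lay above their control ranges in library 2 after removal of the median kidney share. Arg1 stood at 142.9% of its control mean there, against 119% in library 1 and 105% in library 3, and its controls reached 107%. Sds stood at 146% in library 2, and at 92.3% and 87.6%, within its control range, in libraries 1 and 3. Asl stood at 108% in library 1, 132% in library 2 and 124% in library 3, and its controls reached 112%.

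Between treatment and recovery in liver Ass1 differed by 0.74 ± 0.17 (adjusted p = 0.0417) and passed, where 2.29% of all genes did. The other genes did not pass. Fitted differences were above 0 for 9 of the 10 and below for Aldh1b1, with a median of 0.44 against -0.02 over all genes, and 6 did not overlap between groups, where 11.3% of all genes were higher without overlap. On library totals without TMM factors none of the 10 passed in edgeR, where 3.72% of all genes did, and Ass1 differed by 0.51 (adjusted p = 0.0718), beside a median of -0.25 over all genes. There 8 of the differences were above 0, Otc and Aldh1b1 were below, and 4 genes, Cps1, Ass1, Arg1 and Gls2, were higher without overlap. The 11.3% of all genes is for TMM-scaled values and is no background for this count. Without recovery library 1, 7 of the 10 passed, where 13.9% of all genes did. With recovery library 1 alone none of the 10 passed in edgeR, where 0.887% of all genes did and 3 of the 10 had an unadjusted p below 0.05, against 10% of all genes. There 7 differences were above 0 and 3 below, with a median of 0.16, and the difference of Ass1 was 0.68 ± 0.26 (adjusted p = 0.396). Ass1 read 483 to 747 CPM at treatment, above 402 CPM in that library. Aldh1b1 was lower at treatment than at recovery by -0.34 ± 0.23 (adjusted p = 0.471) with all 3 libraries and -0.66 ± 0.19 (adjusted p = 0.146) with library 1 alone.

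Genes that work beside the 10 were followed from lists, whose counts in treated kidney stand beside the 4.13% of all genes that passed there. In treated kidney 1 of 5 tested partners of the urea cycle passed, Slc25a15, the mitochondrial ornithine carrier, which fell by 0.51 on the log2 scale (adjusted p = 0.00182). The other 4 did not pass, with -0.68 for the mitochondrial carbonic anhydrase Car5a, -0.65 for the second arginase Arg2, -0.20 for glutamate dehydrogenase Glud1 and 0.26 for the aspartate and glutamate carrier Slc25a13. The histidine breakdown genes Ftcd and Uroc1 differed by -0.69 and -1.02 (adjusted p = 0.0768 and 0.146).

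Of 22 tested genes of amino acid breakdown 1 rose and 4 fell in treated kidney. Hpd of tyrosine breakdown fell by 2.39 and Kmo of tryptophan breakdown by 0.59, and Gldc of glycine cleavage rose by 1.12. Of 17 other aldehyde dehydrogenases 1 rose and 3 fell, the larger falls being 0.50 for Aldh1l1 and 0.33 for Aldh5a1, all smaller than that of Aldh1b1. Of 12 other periportal genes Pigr, which carries immunoglobulin across epithelia, fell by 2.62, and Pck1 and Fbp1 of gluconeogenesis rose by 0.77 and 0.68. Of 14 genes of arginine and ornithine use spermine synthase Sms rose by 0.46, of 10 pericentral genes the glutamate carrier Slc1a2 fell by 0.75, and of 10 regulators the glucagon receptor Gcgr fell by 0.81.

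In treated liver, where 0.495% of all genes passed, none of 5 urea cycle partners and none of 3 histidine breakdown genes did. The partners ranged from -0.35 for Car5a to 0.23 for Slc25a13, with -0.06 for Nags, whose product activates Cps1. Of the other lists 3 genes passed: Fbp1 rose by 0.73 and the aldehyde dehydrogenase Aldh1a7 by 0.59, and agmatinase, Agmat, fell by 0.76. With recovery library 1 alone, in a fit that called 2.3% of all genes, these 3 passed again. There Amdhd1 of histidine breakdown fell by 0.35, the urea cycle partners gave no call, and of 14 other periportal genes Fbp1 rose while Hsd17b6 and Pigr fell, by 1.28 and 0.67. Of 12 pericentral genes Cyp2e1 and Gulo fell, by 0.71 and 0.61, of 24 genes of amino acid breakdown Prodh2 rose by 0.40, and of 13 regulators Cebpb fell by 0.56. No gene of these lists passed against control at recovery in kidney, or in liver with all libraries or with recovery library 1 alone.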

How the data were processed

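The authors made single-end libraries of polyadenylated RNA. Their reads were trimmed (fastp 0.20.1) and assigned to mouse transcripts by Salmon 1.10.0. The deposited tables hold the estimated count of reads and the TPM of each of 147833 transcripts, with its effective length, and replicates were not pooled. Salmon divides reads shared by transcripts, so transcript shares are model estimates. The study names genome build mm10 with an annotation of another build, so no coordinates were taken from the files. Promoter coordinates are those of the RefSeq table (GRCm38.p6), where 4 of 10 genes matched.

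The estimated counts of a gene's transcripts were added up and the sum rounded. Each organ was fitted over its 10 libraries in 3 groups with edgeR 4.0.16 in R 4.3.3 (TMM, robust quasi-likelihood F-test), keeping genes by edgeR's expression filter (count of 10, total of 15), and organs were compared over all 20 libraries. "Rose", "fell" or "passed" means an adjusted p below 0.05, and log2 values are given ± their standard error. The fit was tested on simulated data. Alternatives were DESeq2 1.42.0, other scaling, no filter, length-scaled TPM counts, only the groups compared, vehicle of the same time, a replicate block and leaving out each library, and, chosen after seeing the data, library totals without TMM factors and liver JQ1 recovery library 1 alone. The genes and lists were chosen with earlier results of these data known. All 10 genes are described, and at most 3 genes that passed are named from each other list, with all urea cycle partners and histidine breakdown genes. The result of 1 other list is not reported here. The kidney share of a liver library is the median over 20 nephron markers of its CPM over the mean of the kidney controls. Labels do not state separate cages or extractions, so p-values measure the spread between these samples.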

Additional observations from a re-analysis of the deposited data

Results flagged for a closer look

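Cps1 in kidney control was flagged because the vehicle recovery library, at 0.84 CPM, stood apart from the 3 vehicle treatment libraries at 0 to 0.138 CPM (16 reads against 0 to 2). By the same test 1 of 19 control groups was flagged, and chance flags about 1 in 20. The same library held the highest hepatocyte marker level of the kidney libraries, and the part of liver RNA in its Cps1 reads was not tested further.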

How the results depend on the processing

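The count of the 10 genes that passed changed as follows, with the share of all genes tested that passed in the same fit. In kidney at treatment against control 1 passed (4.13%), with 2 by DESeq2 (6.07%), 2 on library totals without TMM factors (4.92%), 3 without the filter (3.77%) and 1 to 2 when a library was left out, 2 being without treatment library 1 or 2. In kidney treatment against recovery 2 passed (7.31%), with 4 without the filter (6.07%), 1 with length-scaled TPM counts (5.05%) and 1 to 2 when a library was left out, 1 being without any recovery library or treatment library 3. In liver at treatment 0 passed (0.495%), with 1 by DESeq2 (1.95%), 1 on library totals (0.714%), 2 with only the groups compared (2.66%) and 2 with recovery library 1 alone (2.3%). In liver at recovery 0 passed (0.0343%), with 2 by DESeq2 (4.73%), 1 without the filter (0.84%) and 0 to 5 when a library was left out, 5 being without recovery library 1 (13.6%). In liver treatment against recovery 1 passed (2.29%), with 3 by DESeq2 (7.96%), 3 without the filter (2.26%), 0 with length-scaled TPM counts (1.11%), 0 on library totals (3.72%), 0 with recovery library 1 alone (0.887%) and 0 to 7 when a library was left out, 7 being without recovery library 1 (13.9%) and 0 without recovery library 3 or treatment library 2 or 3. The organ difference gave 0, and 0 to 1 when a library was left out, 1 being Arg1 without kidney treatment library 2. Liver against kidney control gave 10 under all alternatives run, and kidney recovery against control 0. Library totals moved the split of calls over all genes from 39 higher and 33 lower to 24 and 80 in treated liver, from 190 and 144 to 75 and 467 in liver treatment against recovery, and from 413 and 842 to 234 and 1032 in kidney treatment against recovery. The split moved from 5250 and 5687 to 2150 and 11819 in liver against kidney. The cause of these moves was not tested.

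Replicate numbers did not pair the samples within an organ, since correlations of same-numbered deviations were -0.134 to 0.102 within kidney and -0.057 to 0.048 within liver. Between kidney and liver of the same number they were -0.067 to 0.16, with a median of -0.004 and 1 of 10 above 0.1, that of vehicle recovery 1. For kidney and liver of different numbers they were -0.111 to 0.068. Whether 1 mouse gave both organs is not settled by these values. With the replicate block liver treatment against recovery gave 0 in place of 1, and the other counts were as without it. No direction of a gene that passed was turned by any alternative fit run, while mean TPM turned Ass1 between the organs, with libraries that overlapped. Depth limits kidney Cps1, Otc, Gls2, Sds and Hal, with at most 16 reads in a library.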
